A study of Mus musculus with 10 samples.

Results

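In all, 10 genes of the interleukin-1 system were followed in mouse macrophages grown from bone marrow: the receptor antagonist Il1rn, the ligands Il1a, Il1b and Il18, the soluble inhibitor Il18bp, the receptor genes Il1r1, Il1r2 and Il1rap, and the processing genes Casp1 and Nlrp3. They were taken as a list of symbols and matched to Ensembl identifiers through the symbol column of the deposited log2 table. All 10 were found among the 54307 genes of the count table, and 9 of the 10 were expressed strongly enough to be tested, against 12411 genes in all. Il1rn was put on the list because its level was lower in the knock-in macrophages, so its difference between the groups is given as a description without a test. The other 9 were listed as members of the same system.

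The study compared macrophages from 5 wild-type control mice with macrophages from 5 hWDFY3KI/KI mice, which carry a human WDFY3 knock-in on both alleles and are labelled as overexpressing human WDFY3, an autophagy scaffold protein. All mice were male and 6 to 8 weeks old. Marrow cells were cultured with L-929 conditioned medium, which supplies the growth factor for macrophages, and were harvested at day 7, and the labels name no inflammatory stimulus. No source used here gives the locus or promoter of the knock-in, and each library is labelled as 1 mouse. The comparison asks how WDFY3 overexpression changes the macrophage transcriptome.

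Interleukin-1 alpha and beta signal through a receptor built of IL1R1 and its accessory chain IL1RAP, and drive fever, neutrophil recruitment and NF-kB target genes. The receptor antagonist encoded by Il1rn occupies IL1R1 without signalling, and IL1R2 is a decoy that binds the ligand without passing on a signal. Pro-interleukin-1 beta and pro-interleukin-18 are cut to their active forms by caspase-1, which is switched on by inflammasomes such as that of NLRP3, and interleukin-18 is held in check by the binding protein IL18BP. Macrophages are a main source of these cytokines, and they make the interleukin-1 beta transcript mainly once a danger signal has reached them.

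The libraries held 14.6 to 36.4 M estimated counts. Levels are given as CPM, counts per 1e6 counts of a library after TMM scaling, and differences as fitted log2 fold changes of knock-in minus control with their standard error. Macrophage markers were abundant throughout, and 10 of 10 were found in every library. The most abundant, Lyz2 (lysozyme), was at 23061 ± 4636 CPM in control and 27539 ± 2712 CPM in knock-in (mean ± SD, n = 5 each). Ctss (cathepsin S) followed at 8148 ± 669 and 8296 ± 569 CPM. The differences of all 10 markers are summarised further below, beside those of all tested genes. Mouse Wdfy3 ran from 99.96 to 121 CPM in control libraries and from 111 to 127 CPM in knock-in libraries. This entry is annotated as the mouse gene. Whether reads of the human transgene were also counted to it is not known, so it does not check the labels. Transcripts of stromal cells differed widely between libraries. The mean log2 CPM of 11 stromal markers was 2.05 to 2.66 in control 1, control 4 and knock-in 4, called stroma-rich below, and -2.03 to 0.29 in the other 7 libraries. The same 3 libraries had the highest scores for 14 neutrophil markers, at 1.27 to 2.35 against -0.19 to 0.85. They also had the highest scores for the 10 macrophage markers, at 9.865 to 9.88 against 9.716 to 9.791. By the summed CPM of the neutrophil markers, knock-in 1 (460 CPM) lay above knock-in 4 (381 CPM).

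The stretches of chromosome 2 just upstream of the antagonist gene and of the ligand genes it opposes are shown because the balance of these 3 transcripts is described below. Il1rn (ENSMUSG00000026981) spans 24336853 to 24351494 on the plus strand in GRCm38. Il1a (ENSMUSG00000027399, 129299610 to 129309972) and Il1b (ENSMUSG00000027398, 129364570 to 129371139) lie on the minus strand, 54.6 kb apart from each other. The sequences come from RefSeq (GRCm38.p6), are written 5′ to 3′ on the strand of the gene and end at its annotated start. Capitals mark letters that match 1 of 3 motifs searched on both strands, namely GAGGAA for PU.1, TGANTCA for AP-1 and TTGCNNAA for C/EBP.
Il1rn, chr2:24336610-24336852, plus strand: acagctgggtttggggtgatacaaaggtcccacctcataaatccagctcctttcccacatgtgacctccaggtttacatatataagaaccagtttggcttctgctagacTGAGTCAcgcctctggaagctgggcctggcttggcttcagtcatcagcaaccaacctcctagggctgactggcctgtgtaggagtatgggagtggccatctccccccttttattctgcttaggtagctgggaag
Il1a, chr2:129309973-129310222, minus strand: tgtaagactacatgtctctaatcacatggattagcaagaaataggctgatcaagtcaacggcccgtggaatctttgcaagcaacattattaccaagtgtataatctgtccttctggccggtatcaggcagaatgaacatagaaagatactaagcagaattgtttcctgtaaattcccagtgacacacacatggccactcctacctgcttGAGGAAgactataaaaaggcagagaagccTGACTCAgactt
Il1b, chr2:129371140-129371389, minus strand: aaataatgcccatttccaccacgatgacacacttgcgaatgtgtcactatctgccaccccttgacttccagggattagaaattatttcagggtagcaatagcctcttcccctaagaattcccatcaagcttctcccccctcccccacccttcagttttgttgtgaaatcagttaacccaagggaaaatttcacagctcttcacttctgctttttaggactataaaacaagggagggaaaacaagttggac

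The Il1rn stretch held 1 AP-1 match, which begins 141 bases before the RefSeq start. That start lies beyond the printed letters, which end at 24336852, while the RefSeq window runs on to 24336859. The Il1a stretch held 1 PU.1 match and 1 AP-1 match, 41 and 12 bases before the start, and the Il1b stretch held no match to these letters. No matches overlapped each other in these stretches. Of 32851 promoter windows of 250 bases, 23.3% held the PU.1 letters, 6.75% the AP-1 letters and 9.56% the C/EBP letters, so matches of this kind are frequent. RefSeq lists 3 starts for Il1rn, of which the most upstream is printed. The count table sums all transcripts of a gene, so which start was used was not measured.

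Il1rn was the second most abundant transcript of the 10 per length of exon. It was at 128, 104, 98.7, 104 and 84.6 CPM in controls 1 to 5, and at 67.8, 72.3, 50.2, 78.9 and 64.3 CPM in knock-in 1 to 5. All 5 knock-in libraries lay below all 5 controls, the highest knock-in value being 78.9 CPM in knock-in 4 and the lowest control value 84.6 CPM in control 5. The group means were 104 ± 15.6 and 66.7 ± 10.7 CPM (SD, n = 5), and the fitted log2 difference was -0.64 ± 0.13, or 0.641 times the control level. On the deposited log2 scale, where differences of variable genes are shrunken, the means were 10.97 ± 0.13 and 10.48 ± 0.21, a difference of -0.49. These values chose the gene and are not evidence of their own. Of all tested genes, 0.588% had groups that did not overlap and were lower in the knock-in.

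Stromal and neutrophil transcripts varied between the same libraries, so the Il1rn values are also given by set of libraries. In the 3 stroma-rich libraries, Il1rn was at 128 CPM in control 1 and 104 CPM in control 4, against 78.9 CPM in knock-in 4. In the other 7 libraries it was at 84.6 to 104 CPM in 3 controls and at 50.2 to 72.3 CPM in 4 knock-in libraries. The fitted log2 difference was -0.59 without the 3 libraries, -0.57 when the stromal score entered the model and -0.51 when the neutrophil score did. These refits use the values that chose the gene and are a description only. The part of stromal or neutrophil RNA in the Il1rn difference was not tested. Il1rn is expressed by neutrophils as well as by macrophages. Of the 14 neutrophil markers 9 were tested, and 9 of 9 had a negative log2 difference (median -0.81) with 0 called by edgeR and 1, Ltf, at an unadjusted p under 0.05. Of the 11 stromal markers 8 were tested, 7 of them negative (median -1.32) with 0 called and 0 at an unadjusted p under 0.05. The 10 macrophage markers were all tested, 7 of them negative (median -0.042) with 0 called. An unadjusted p under 0.05 in edgeR was reached by 1 of them, Adgre1 (log2 -0.21 ± 0.059, adjusted p = 0.548, edgeR). Adgre1 was at 860 to 1042 CPM in control libraries and 808 to 847 CPM in knock-in libraries, without overlap. Among all tested genes, 0.588% lay apart in this way, lower in the knock-in. Of all tested genes, 51.7% were negative, 0.0806% were called and 6.21% had an unadjusted p under 0.05. The neutrophil list summed to 278 to 634 CPM in control libraries and 209 to 460 CPM in knock-in libraries. Its most abundant genes were Mmp8 and Mmp9, a collagenase and a gelatinase, at means of 151 ± 77.3 and 147 ± 82.7 CPM in control libraries and 103 ± 58.3 and 133 ± 89.6 CPM in knock-in libraries. Csf3r, the receptor of granulocyte colony-stimulating factor, followed at 93.1 ± 14.2 and 89.5 ± 15.7 CPM. The calcium-binding proteins S100a8 and S100a9 were at 8.54 ± 5.92 and 5.90 ± 5.79 CPM in control libraries and at 4.72 ± 1.91 and 1.57 ± 1.40 CPM in knock-in libraries. The largest negative differences in the list were those of the granule protein genes Ltf (log2 -2.19 ± 0.89) and Ngp (-1.69 ± 0.96) and of S100a9 (-1.94 ± 0.88). Ly6g, a surface marker of mature neutrophils, had 4 counts in all 10 libraries together, and Retnlg, Fcnb and Camp had 12, 18 and 44. Whether the RNA of the abundant genes in this list came from neutrophils was not tested. In bulk RNA, fewer cells of a type and less RNA per cell cannot be told apart.

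**Figure D1:**
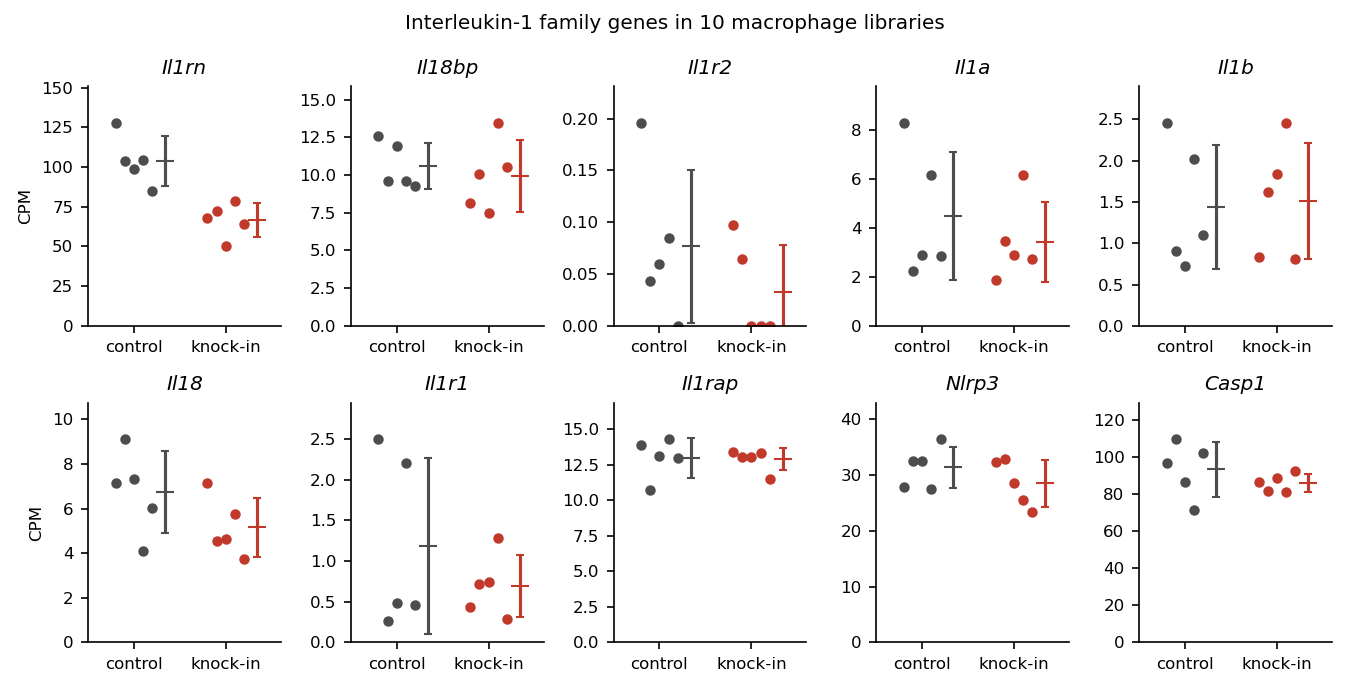
CPM of each of the 10 genes (vertical axes start at 0, with a scale of their own) in 5 control libraries (grey) and 5 knock-in libraries (red), 1 point per library in the order of replicate number; the dash and bar beside the points are the mean and SD. The groups are apart for Il1rn, which was chosen for this difference, at 84.6 to 128 against 50.2 to 78.9 CPM. They overlap for the other 9 genes. Of 12411 tested genes, 164 had groups that did not overlap, in either direction.

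Of the other natural inhibitors, Il18bp was tested and not called, and Il1r2 was too low to be tested. Il18bp (ENSMUSG00000070427, chromosome 7, 102014885 to 102018690), which binds and neutralises interleukin-18, was at 12.6, 9.63, 11.9, 9.58 and 9.29 CPM in control libraries and at 8.14, 10.1, 7.46, 13.5 and 10.6 CPM in knock-in libraries. The groups overlapped, with the highest value in knock-in 4 and the lowest in knock-in 3 (log2 -0.09 ± 0.15, adjusted p = 0.935 in edgeR's quasi-likelihood test over all genes). Il18bp shares 80 exon bases, 2.64% of its exon length, with Numa1 on the opposite strand, which was at 139 CPM in both groups. No source used here tells if reads were assigned by strand, so a part of the Il18bp counts is uncertain. Il1r2 (ENSMUSG00000026073, chromosome 1, 40074079 to 40125231), the decoy receptor, was close to absent. It had 4, 1, 1, 3 and 0 counts in the controls and 2, 1, 0, 0 and 0 in the knock-in, 12 counts in all, and was left out of the test. A count of 0 allows up to 3 counts, or 0.131 to 0.195 CPM in those 4 libraries, counting error only, so no difference was detectable at this depth.

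Of the ligands, Il1a and Il1b were highest in the 3 stroma-rich libraries, which come from both genotypes. Il1a was at 8.29, 2.24, 2.88, 6.15 and 2.86 CPM in control libraries and at 1.85, 3.45, 2.88, 6.15 and 2.72 CPM in knock-in libraries. Il1b was at 2.45, 0.903, 0.719, 2.01 and 1.10 CPM in control libraries and at 0.829, 1.63, 1.83, 2.46 and 0.812 CPM in knock-in libraries. For both genes the 3 highest libraries were control 1, control 4 and knock-in 4, and the genotypes overlapped. The fitted log2 differences were -0.41 ± 0.42 for Il1a (adjusted p = 0.896, edgeR) and 0.05 ± 0.39 for Il1b (adjusted p = 0.992, edgeR), with intervals of 2 SE from -1.25 to 0.43 and from -0.74 to 0.84. The intervals leave room for a change of either sign. The sign of the Il1a difference turned when the stromal score (0.05) or the neutrophil score (0.33) entered the model, and when the 3 stroma-rich libraries were left out (0.04). The Il1b difference was 0.50, 0.75 and 0.48 in these 3 fits, and it was not called in any of them. Il1b rests on 12 to 71 counts per library. In exons Il1a shares 222 bases with the opposite-strand transcript Gm14023, which was at 0.201 and 0.240 CPM.

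Il18 (ENSMUSG00000039217, chromosome 9, 50554827 to 50581840), which activates T and natural killer cells to make interferon gamma, showed no such grouping by stromal RNA. It was at 7.16, 9.11, 7.31, 4.08 and 6.04 CPM in control libraries and at 7.17, 4.55, 4.63, 5.74 and 3.73 CPM in knock-in libraries. Of the knock-in libraries 4 of 5 lay below the control median of 7.16 CPM, but the groups overlapped, control 4 being the second lowest of all. The log2 difference was -0.38 ± 0.22 (adjusted p = 0.819, edgeR).

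**Figure D2:**
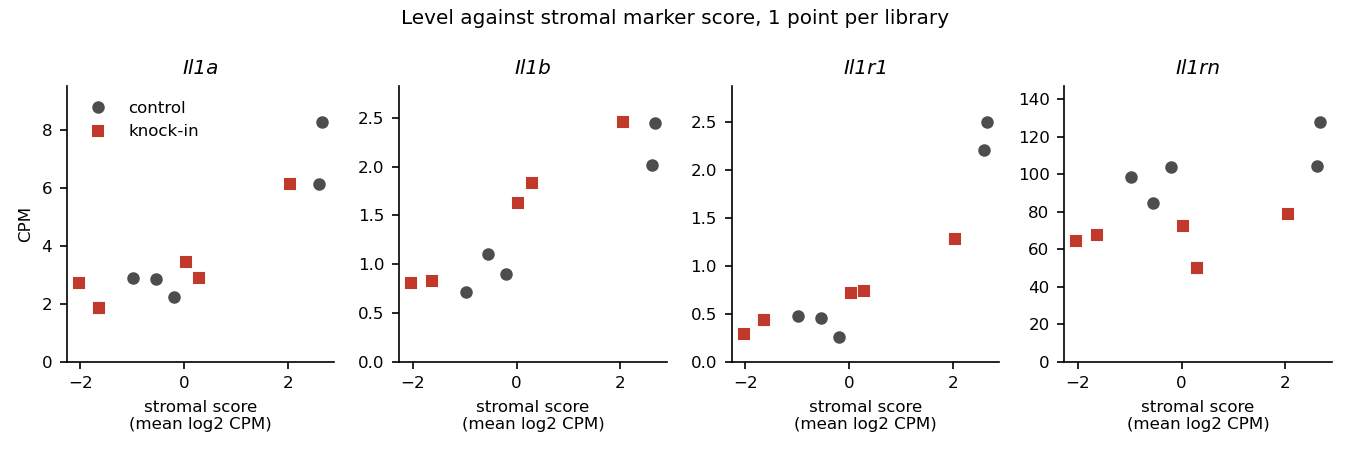
CPM of Il1a, Il1b, Il1r1 and Il1rn (vertical axes from 0) against the stromal marker score, the mean log2 CPM of 11 markers, with 1 point per library (grey circles control, red squares knock-in). Il1a, Il1b and Il1r1 are highest in the 3 libraries with a score of 2.05 to 2.66, while at these scores Il1rn is at 128 and 104 CPM in control libraries and 78.9 CPM in knock-in libraries.

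Of the receptor genes, Il1r1 (ENSMUSG00000026072, chromosome 1, 40225080 to 40317257), which encodes the signalling receptor and is strongly expressed by fibroblasts, was at 2.50, 0.258, 0.480, 2.21 and 0.455 CPM in control libraries and at 0.439, 0.715, 0.742, 1.28 and 0.287 CPM in knock-in libraries. Its 3 highest libraries were again control 1, control 4 and knock-in 4. The log2 difference was -0.82 ± 0.64 (adjusted p = 0.860, edgeR), with an interval of 2 SE from -2.09 to 0.46, and it was 0.08 when the stromal score entered the model and 0.65 when the neutrophil score did. The gene had 6 to 78 counts per library. Il1rap (ENSMUSG00000022514, chromosome 16, 26581704 to 26730117), the shared accessory chain, was at 13.0 ± 1.39 CPM in control libraries and 12.9 ± 0.771 CPM in knock-in libraries (log2 -0.01 ± 0.087, adjusted p = 0.988, edgeR). Its interval of 2 SE ran from -0.19 to 0.16, the narrowest of the 9 tested members.

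Il1a, Il1b and Il1r1 were the 3 members that were higher in each of control 1, control 4 and knock-in 4 than in any other library. Il1a was at 6.15 to 8.29 CPM in these 3 and at 1.85 to 3.45 CPM in the other 7, Il1b at 2.01 to 2.46 against 0.719 to 1.83 CPM, and Il1r1 at 1.28 to 2.50 against 0.258 to 0.742 CPM. Of all tested genes, 5.94% were higher in each of these 3 libraries than in the other 7. The stromal list summed to 106 to 176 CPM in the 3 libraries, with Col1a1 and Col1a2, the chains of type I collagen, reaching 46.8 and 48.8 CPM. None of its 11 genes was at 0 in every library. The part of stromal or neutrophil RNA in these levels was not tested, since both scores were highest in the same 3 libraries.

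The processing genes were abundant, and neither passed the test. Casp1 (ENSMUSG00000025888, chromosome 9, 5298517 to 5307265), the protease that matures both cytokines, was at 96.6, 109, 86.1, 71.5 and 102 CPM in control libraries and at 86.3, 81.5, 88.5, 80.8 and 92.2 CPM in knock-in libraries. The knock-in values lay within the control range (log2 -0.12 ± 0.098, adjusted p = 0.872, edgeR). Nlrp3 (ENSMUSG00000032691, chromosome 11, 59541568 to 59566956), a sensor that responds to potassium efflux, was at 27.8, 32.6, 32.5, 27.5 and 36.5 CPM in control libraries and at 32.3, 33.0, 28.5, 25.6 and 23.3 CPM in knock-in libraries. Knock-in 4 and 5 lay below all controls, and the other 3 within their range (log2 -0.13 ± 0.11, adjusted p = 0.861, edgeR). The intervals of 2 SE, from -0.31 to 0.08 for Casp1 and from -0.35 to 0.08 for Nlrp3, leave out changes of 1 log2 unit.

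**Figure D3:**
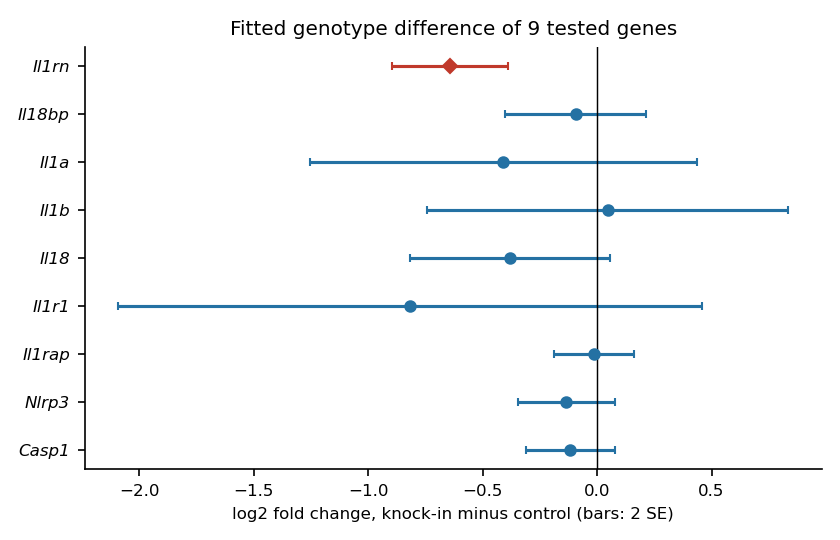
Fitted log2 fold change, knock-in minus control, of the 9 tested genes, with bars of 2 SE; the vertical line marks 0. The bars of 8 genes cross 0, and Il1rn, drawn as a red diamond because it was chosen on this value, is at -0.64.

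Of the 9 members tested, 0 were called at an adjusted p under 0.05 by edgeR, where 0.0806% of all tested genes were called. At an unadjusted p under 0.05 there was 1 member, Il1rn, against 6.21% of all tested genes. DESeq2 called 1 member, again Il1rn, where it called 0.35% of its genes, and limma-voom and limma-trend called 0 members, where they called 0.0967% and 0.0555%. Because the contrast chose Il1rn, nothing is read from these counts for that gene. Of the 9 tested members, 8 had a negative log2 difference, with a median of -0.13, whereas 51.7% of all tested genes were negative with a median of -0.0046. The negative members include Il1rn itself. They also include Il1a, Il1r1 and Il1rap, whose sign turned with either marker score, and Il18bp, whose sign turned with the neutrophil score.

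Compared between genes per kilobase of annotated exon, Casp1 was the most abundant member, at 62.3 ± 9.89 CPM per kb in the controls and 57.4 ± 3.21 CPM per kb in the knock-in. Il1rn followed at 18.8 ± 2.82 and 12.05 ± 1.94 CPM per kb, apart from both of its neighbours in the order in each group. Nlrp3 (7.73 ± 0.925 CPM per kb in the controls) and Il18 (6.54 ± 1.79) overlapped, as did each further neighbouring pair in the controls down the order Il18bp (3.51 ± 0.508), Il1a (2.27 ± 1.33), Il1rap (1.14 ± 0.122), Il1b (0.754 ± 0.395), Il1r1 (0.186 ± 0.170) and Il1r2 (0.0403 ± 0.0385). The knock-in libraries gave the same order, and there only Il1b and Il1r1 stood apart among these lower neighbours. The lengths are unions of all annotated exons in GENCODE M21, and transcripts in use can be shorter.

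**Figure D4:**
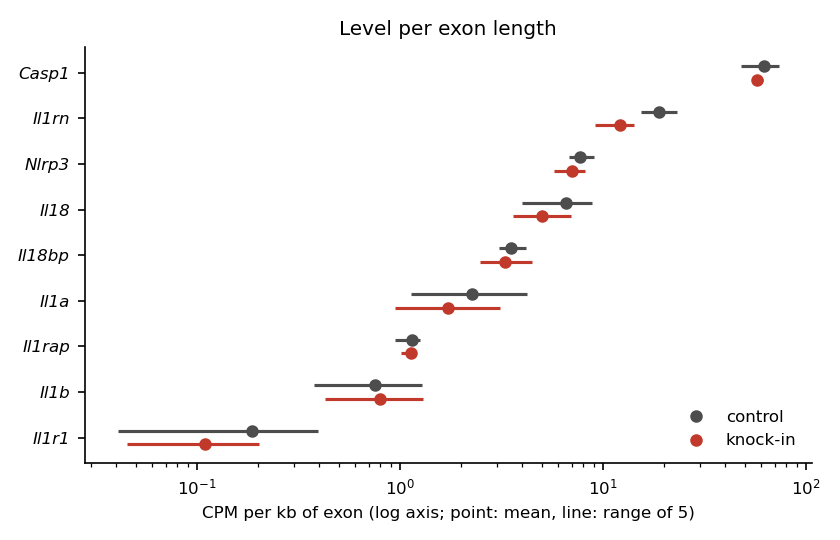
Level in CPM per kilobase of exon (log axis) of 9 genes in control (grey) and knock-in (red) libraries, with the mean of 5 as a point and their range as a line. Casp1 is highest at a control mean of 62.3 and Il1rn second at 18.8; Il1r2 is left out because some of its libraries are at 0.

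The antagonist transcript exceeded the ligand transcripts in every library. The ratio of Il1rn CPM to the summed CPM of Il1a and Il1b was 11.9, 33.2, 27.5, 12.8 and 21.3 in controls 1 to 5 and 25.3, 14.3, 10.7, 9.17 and 18.2 in knock-in 1 to 5. The groups overlapped, and knock-in 4, control 1 and control 4, where the ligands were highest, were 3 of the 4 lowest ratios, the other being knock-in 3 with the lowest Il1rn. The ratio contains the gene chosen for its difference and is given without a test. The ratio of Il18bp to Il18 was 1.06 to 2.35 in the controls and 1.14 to 2.83 in the knock-in.

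Most other ligands and receptors of the family were too low to be tested in these cultures. Of 13 such genes, 4 were expressed strongly enough to be tested and 0 were called by edgeR, DESeq2, limma-voom or limma-trend (0 at an unadjusted p under 0.05 in edgeR), with 2 positive and 2 negative differences. In edgeR, 0.0806% of all tested genes were called, 6.21% had an unadjusted p under 0.05 and 51.7% were negative. Il36g, an epithelial and myeloid ligand, was at 1.50 ± 1.01 and 1.05 ± 0.567 CPM (log2 -0.56 ± 0.48, adjusted p = 0.877, edgeR), and Il1rl1, the receptor of interleukin-33, at 3.11 ± 1.06 and 4.19 ± 2.28 CPM (log2 0.43 ± 0.38, adjusted p = 0.881, edgeR). Il33 itself had 2 counts in all 10 libraries together, and Il36b, Il36rn, Il1f10, Il1rapl1 and Il1rapl2 had 0. Il1rl2 had the highest CPM of the 13 genes, at 7.14 ± 2.93 in control and 6.83 ± 0.839 in knock-in libraries. Il18rap was at 1.29 ± 0.433 and 1.39 ± 0.417 CPM.

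The signalling chain from the receptor to NF-kB was expressed throughout, and its differences were small. Of 23 genes tested, 0 were called by any of the 4 tools and 1 had an unadjusted p under 0.05 in edgeR, with 15 positive and 8 negative differences from -0.08 to 0.19 (median 0.035). Over all tested genes edgeR called 0.0806%, 6.21% had an unadjusted p under 0.05, and 51.7% were negative (median -0.0046). Ube2v1, a partner of the ubiquitin-conjugating enzyme that serves TRAF6, was at 95.7 ± 10.2 and 109 ± 8.73 CPM (log2 0.19 ± 0.080, adjusted p = 0.778, edgeR). Chuk, which encodes the kinase IKK-alpha, was at 46.0 ± 2.62 and 50.04 ± 2.96 CPM (log2 0.12 ± 0.058, adjusted p = 0.799, edgeR).

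Genes for other inflammasomes and for cytokine release were tested for 22 of 23, of which 0 were called by any of the 4 tools and 3 had an unadjusted p under 0.05 in edgeR. The differences were positive for 11 and negative for 11, with a median of -0.019, beside 0.0806% called, 6.21% at an unadjusted p under 0.05 and 51.7% negative among all tested genes. Mefv, which encodes the inflammasome sensor pyrin, was at 3.73 ± 1.00 and 5.22 ± 0.982 CPM (log2 0.47 ± 0.19, adjusted p = 0.744, edgeR). Nlrc4, the adaptor of the inflammasome that detects flagellin, was at 21.7 ± 2.90 and 18.5 ± 1.55 CPM (log2 -0.23 ± 0.093, adjusted p = 0.744, edgeR).

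Genes that interleukin-1 is known to induce were tested for 15 of 22, and 0 were called by any of the 4 tools, with 2 at an unadjusted p under 0.05 in edgeR. Of the 15, 13 had a negative difference, with a median of -0.19. Among all tested genes 51.7% were negative, with a median of -0.0046, 6.21% had an unadjusted p under 0.05 and 0.0806% were called. Sod2, the mitochondrial superoxide dismutase, was at 59.9 ± 3.91 and 54.7 ± 2.38 CPM (log2 -0.13 ± 0.055, adjusted p = 0.745, edgeR), and Saa3, an acute-phase protein, at 1.87 ± 1.37 and 0.771 ± 0.547 CPM (log2 -1.31 ± 0.57, adjusted p = 0.788, edgeR). Averaged over the list, log2 CPM was 1.16 to 1.45 in the 3 stroma-rich libraries and 0.57 to 1.13 in the other 7, and its genes include products of stromal cells and neutrophils. The part of those cells in the list's level was not tested.

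**Figure D5:**
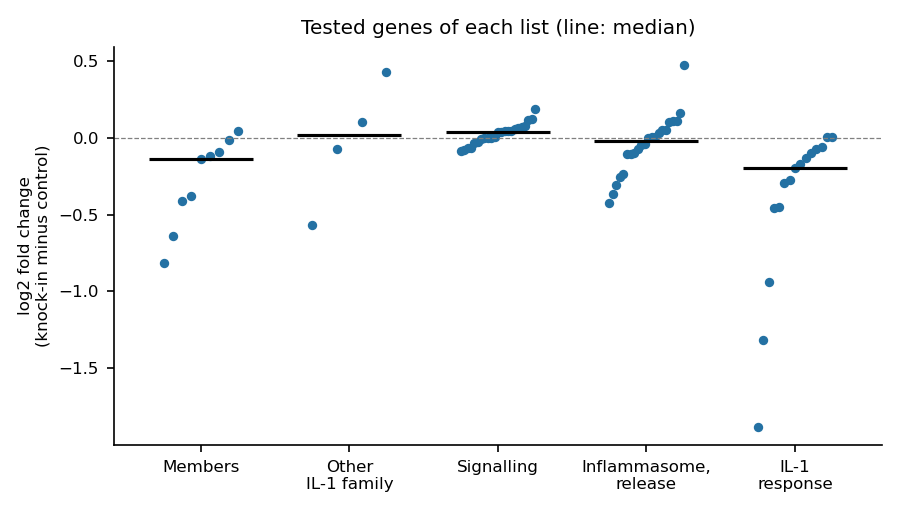
Fitted log2 fold change, knock-in minus control, of every tested gene (points) in the 10 members and in 4 lists of the pathway, with the list median as a line and 0 dashed. Signalling genes lie within -0.08 to 0.19, and the members and the interleukin-1 response genes have medians of -0.13 and -0.19.

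With the group means removed, which takes out the difference that chose the gene, the libraries' deviations in Il1rn were compared with those of every other gene over 10 libraries. The 5 most alike were Eif2ak4, the amino acid sensor GCN2 (Pearson r = 0.946), Mylip, the ubiquitin ligase of the LDL receptor (0.943), the mitochondrial ribosomal protein Mrps5 (0.934), the chaperonin subunit Cct7 (0.902) and Atf7ip, a partner of a histone methyltransferase (0.902). The 3 least alike were Pccb, a subunit of propionyl-CoA carboxylase (-0.931), the lamina-associated protein Tmpo (-0.904) and the histone chaperone Npm3 (-0.898). Over all tested genes the values ran from -0.629 to 0.634 between the 5th and 95th percentile, so large values are common with so few libraries, and all deviations share library depth and cell makeup. Among the members, Il18bp was closest to Il1rn by Pearson r (0.744), followed by Il1a (0.591), Il1r1 (0.475) and Il1b (0.370). Nlrp3 was the least alike (-0.328). Of these values only that of Il18bp lay outside the range just given. The order of the members is unstable too. By Spearman's rho, Il1rap (0.612) came above Il18bp (0.576), and Casp1 (-0.248) below Nlrp3 (-0.176). Around the gene, 7 of 23 annotated genes within 500 kb were tested, of which 0 were called by edgeR, 1 had a positive and 6 a negative log2 difference, from -1.70 to 0.34 with a median of -0.086, where 0.0806% of all tested genes were called and 51.7% were negative.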

How the data were processed

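Strand-specific libraries of poly(A)+ RNA were read as pairs of 100 bp with a target of 20 M reads, per the labels. Salmon 1.6.0, MultiQC and DESeq2 1.34.0 are listed in the submitters' processing notes, which also list GRCm39 and mm10 with no role. One deposited table gives estimated counts per Ensembl gene. The other deposited table gives log2 values, regularized by DESeq2's rlog as its name tells. No source used here states the annotation release or the strand setting.

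The counts were rounded and tested for genotype over 10 libraries with the quasi-likelihood F-test of edgeR 4.0.16 (R 4.3.3), after filterByExpr (minimum count 10, minimum total 15) and TMM scaling, Benjamini-Hochberg adjusted over 12411 genes at a threshold of 0.05. The SE is the log2 fold change divided by the square root of F, and log2 CPM uses a prior count of 2. The p-values measure the spread among libraries that the labels assign to separate mice. Libraries of a group differed beyond sampling noise (chi-square per gene of 8.75 to 54.5 between pairs), so none was counted as a duplicate. Coordinates and exon lengths are from GENCODE M21 (GRCm38), matched by gene ID, and all 10 members matched the RefSeq promoter table. The test was first tested on simulated data.

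The members and lists were chosen with earlier results of these data known. Named are all members, of each pathway list its called genes and the 2 with the smallest p, the 5 genes most and 3 least like Il1rn with a mean log2 CPM of at least 1, and the 2 most abundant genes of each marker list named in the text. Other named genes (the neutrophil markers other than Mmp8 and Mmp9, Numa1, Gm14023, Wdfy3 and the family genes at or near 0 counts) were chosen after their values were seen. Alternatives were scaling by RLE or by the upper quartile, DESeq2 1.42.0, limma-voom and limma-trend on the deposited log2 values (limma 3.58.1), other filters, the replicate number as a block, marker scores as covariates and leaving out each library. Leaving out the 3 stroma-rich libraries was added after seeing the data. Markers of dendritic, lymphoid, basophil and mast, and erythroid cells were low, with summed levels of at most 5.64, 2.81, 2.92 and 1.13 CPM in a library. Their most abundant genes by rule were Siglech and Xcr1, Ms4a1 and Cd79a, Gata2 and Cpa3, and Hba-a2 and Hba-a1.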

Additional observations from a re-analysis of the deposited data

Results flagged for a closer look

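Within the 5 knock-in libraries, Il1rap stood out in knock-in 5, at 11.5 CPM against 13.0 CPM in the next library, a gap of 0.789 of the group's whole range where the 95% limit for 5 samples is 0.71. This was 1 of 20 groups examined, and chance alone flags about 1 in 20. Without knock-in 5 the log2 difference of Il1rap was 0.02 in place of -0.01, and it was not called in either fit.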

How the results depend on the processing

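Members called lower numbered 0 in edgeR and 1 (Il1rn) in DESeq2, and 0 in each of the other 20 alternatives, while members called higher and calls in the pathway lists numbered 0 in all 21. Il1rn was lower in all 21, with a log2 difference from -0.71 to -0.49. The contrast in these libraries chose Il1rn, so its sign in these refits is a description only. Il18, Casp1 and Nlrp3 were negative in all 21. The sign turned for 5 members. With the neutrophil score as a covariate the log2 differences were 0.33 for Il1a, 0.65 for Il1r1, 0.084 for Il1rap and 0.0044 for Il18bp. With the stromal score they were 0.047 for Il1a, 0.085 for Il1r1 and 0.033 for Il1rap, and without the 3 stroma-rich libraries they were 0.038 for Il1a and 0.064 for Il1rap (Il1r1 was too low to be tested there and under the filter of 1 CPM in 5 libraries). Il1b was at -0.0039 in limma-voom, and leaving out 1 library gave -0.20 to 0.31 for Il1b and -0.076 to 0.028 for Il1rap.

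Over all genes edgeR called 10 (5 higher, 5 lower), DESeq2 49 (32 and 17) and the fit without the 3 stroma-rich libraries 38 (23 and 15), and with the stromal score 8 were higher. Leaving out 1 library gave 6 to 23 calls, 2 to 10 higher and 4 to 13 lower, with the most without knock-in 4 and the fewest without control 2 or knock-in 1, 2 or 3. The causes were not tested. With the replicate block edgeR called 12 genes and 0 members, and Il1rn was at -0.64. Same-numbered libraries correlated at -0.20 to 0.51, and 2 of 5 controls correlated best with their own number, so the numbers were not taken as pairs. Of the 8 genes named as most or least like Il1rn, 3 stayed with Spearman's rho and 1 to 5 when 1 library was left out, the fewest without knock-in 3, so these names are unstable. The order of the 10 members was the same without scaling factors. The few counts of Il1r2, Il1b and Il1r1 limit what can be said of them.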
